A study of Mus musculus with 12 samples.

Results

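Ppp2r1b, Sik2 and Alg9 lie side by side on mouse chromosome 9, and the accessible regions assigned to them are described here in brown adipose tissue (BAT) and inguinal white adipose tissue (iWAT). The members were all ATAC-seq peaks whose deposited gene symbol is 1 of these 3 genes. They numbered 49 of 98116 peaks. The BAT table held 32 of its 58558 peaks there (16 assigned to Ppp2r1b, 10 to Sik2 and 6 to Alg9), and the iWAT table held 17 of 39558 (10, 2 and 5). The locus was chosen by its measured BAT values, since a BAT peak upstream of Ppp2r1b was lower in knockout mice, and therefore all BAT differences between genotypes at these peaks are given as a description, without a test. The iWAT values did not enter that choice.

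ATAC-seq uses a transposase that cuts and tags open DNA, and the number of reads in a peak follows how accessible that stretch is. The flox mice were C57BL/6 animals with floxed alleles of BAF60a, which Smarcd1 encodes and which belongs to the SWI/SNF complexes that remodel chromatin. The AKO mice carried the same floxed alleles and Adiponectin-Cre, which is active in adipocytes, so that other cells of the tissue keep the gene. For BAT, each of the 3 flox and 3 AKO samples was the tissue of 1 mouse, and neither age nor housing temperature was given for these animals in the sources used here. For iWAT, mice aged 6 to 8 months were acclimated to cold and held at 10 °C for 7 days, the pads of 6 animals of each genotype were pooled, and the pool was divided into 3 aliquots. The iWAT aliquots are therefore technical replicates of 1 pool per genotype, and their p-values measure only the spread between aliquots. Values are normalized reads, that is, the reads counted in a peak after scaling by the size factor of its sample. BAT samples held 6336670 to 27500738 reads in peaks and iWAT samples 4066720 to 6691161. At the targeted gene, the Smarcd1 peak at chr15:99704113-99704521 had 136, 201 and 185 normalized reads in flox BAT and 23.7, 57.9 and 26.9 in AKO BAT. The other BAT peak of Smarcd1 overlapped between genotypes (437 ± 60.5 in flox and 442 ± 47.5 in AKO, SD, n = 3 mice), as did its 1 iWAT peak (216 ± 30.7 and 231 ± 1.83, SD, n = 3 aliquots), so that no iWAT peak checks the genotype labels.

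PPP2R1B is the beta form of the scaffold (A) subunit of protein phosphatase 2A (PP2A), the platform that joins the catalytic subunit to a regulatory subunit. SIK2, salt-inducible kinase 2, belongs to the AMPK-related kinases. It holds CRTC coactivators and class IIa histone deacetylases in the cytoplasm, and protein kinase A, which acts downstream of β-adrenergic signaling in fat, relieves that hold. ALG9 is a mannosyltransferase of the endoplasmic reticulum that adds mannose to the lipid-linked precursor of N-glycans. In mm10, Alg9 spans chr9:50775019-50843542 and Ppp2r1b spans chr9:50845301-50894229, both on the plus strand. Sik2 spans chr9:50892801-51009073 on the minus strand, and its last exon runs into the end of Ppp2r1b.

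The peak assignment follows the nearest start site, so a symbol does not say which gene a peak lies in. All 3 BAT peaks named for Ppp2r1b at −37.2, −21.9 and −15.3 kb from its start lie in introns of Alg9, and another 6 named for Ppp2r1b lie in the body of Sik2. By position, 9 BAT member peaks lay in Alg9, 7 in Ppp2r1b and 16 in Sik2. Distances run from the RefSeq start site to the midpoint of the peak. For the 32 BAT peaks they equalled the distances deposited by the authors in 32 cases.

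The sequences on which the description turns are printed 5′ to 3′ on the plus strand of mm10, unless stated otherwise. The first is the region of the peak at −21.9 kb, in intron 14 of Alg9, that holds both of its matches to a PPAR response element. That element was searched on both strands as AGGTCA repeated after 1 base, with up to 3 mismatches in 12 fixed bases, and the capitals mark the matches. The second lies in the peak over exon 13 of Alg9, at 33.9 kb from the Alg9 start, and its capitals mark the 2 matches with 1 mismatch. Its label names the peak, which overlaps that exon, and the printed stretch itself was not placed inside or outside the exon. The third comes from intron 15 of Ppp2r1b, the peak with the most reads of the locus, and its capitals mark TGACGTCA, the cyclic AMP response element (CRE).
Alg9 intron 14, chr9:50835131-50835339: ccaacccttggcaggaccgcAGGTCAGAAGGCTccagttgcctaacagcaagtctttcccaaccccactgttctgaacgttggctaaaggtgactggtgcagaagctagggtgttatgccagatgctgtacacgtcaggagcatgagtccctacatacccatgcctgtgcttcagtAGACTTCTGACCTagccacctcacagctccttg
Alg9 exon 13, chr9:50808497-50808735: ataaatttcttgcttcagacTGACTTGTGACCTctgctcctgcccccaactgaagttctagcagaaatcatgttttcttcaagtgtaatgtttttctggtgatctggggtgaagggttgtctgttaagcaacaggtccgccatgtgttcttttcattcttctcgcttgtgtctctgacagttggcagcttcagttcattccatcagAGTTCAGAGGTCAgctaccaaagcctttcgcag
Ppp2r1b intron 15, chr9:50885405-50885492: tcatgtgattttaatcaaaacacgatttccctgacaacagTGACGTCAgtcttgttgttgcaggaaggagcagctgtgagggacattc

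The start sites of Ppp2r1b and Sik2 also lie under peaks, and the 250 bases before each start, taken from RefSeq (GRCm38.p6), are shown for comparison with the distal peaks. The Ppp2r1b stretch had 59.2% GC and 14 CpG, and the Sik2 stretch, on the minus strand, had 80.0% GC and 35 CpG. Neither held the CRE, and no letters are capitalized.
Ppp2r1b, chr9:50856674-50856923: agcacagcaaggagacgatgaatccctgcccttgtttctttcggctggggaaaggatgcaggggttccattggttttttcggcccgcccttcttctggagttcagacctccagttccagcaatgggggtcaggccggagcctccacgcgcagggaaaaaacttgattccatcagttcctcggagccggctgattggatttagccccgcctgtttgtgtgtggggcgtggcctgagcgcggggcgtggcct
Sik2, chr9:51009074-51009323: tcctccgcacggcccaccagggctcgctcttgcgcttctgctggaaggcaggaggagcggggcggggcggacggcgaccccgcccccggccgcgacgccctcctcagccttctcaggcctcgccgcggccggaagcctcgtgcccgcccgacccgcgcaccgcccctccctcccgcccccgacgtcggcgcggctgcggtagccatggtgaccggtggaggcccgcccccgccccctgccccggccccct

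In BAT, AKO values lay below flox values without overlap at 10 of the 32 member peaks and above them at 1. Over all BAT peaks, 8.84% were lower and 8.77% higher without overlap, and nothing is read from the comparison because the same contrast chose the locus. The fitted log2 fold change of AKO against flox was negative at 23 member peaks, with a median of −0.22 (all BAT peaks 0.01, of which 49.1% were negative). It came from limma on log2(normalized reads + 1), with the score of each sample on the first principal component (PC1) as a covariate. The scale understates changes of peaks with few reads. Along the locus, the separated lower peaks fell into 3 places: the body of Alg9, intron 11 of Ppp2r1b, and scattered peaks of the Sik2 body.

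**Figure D1:**
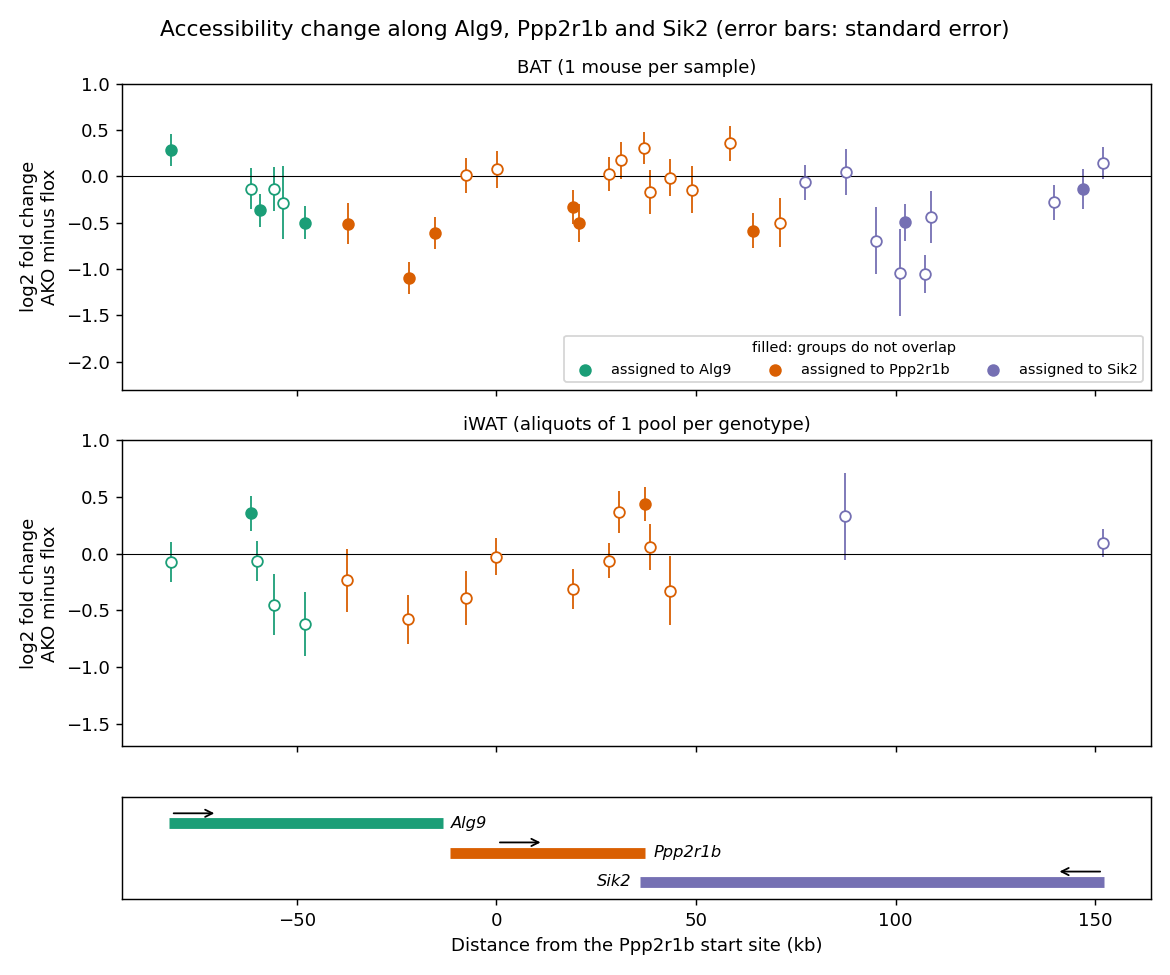
Fitted log2 fold change (AKO minus flox, error bars are standard errors) of each member peak against its distance from the Ppp2r1b start in kb, for BAT (top) and iWAT (middle), with the gene bodies and the direction of transcription below. Filled points are peaks whose genotype groups do not overlap, 11 of 32 in BAT and 2 of 17 in iWAT, and the lowest BAT point is the peak at −21.9 kb (−1.09).

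The peak at −21.9 kb from Ppp2r1b, chr9:50834076-50835876, showed the largest difference of the locus. It is 1801 bp wide and lies in intron 14 of Alg9. Its normalized reads were 2025, 1886 and 1692 in the flox samples and 853, 664 and 757 in the AKO samples. Every AKO sample was below every flox sample. The means were 1868 ± 167 in flox and 758 ± 94.1 in AKO (SD, n = 3 mice), so that the AKO mean was 59.4% lower. The fitted log2 fold change was −1.09 (standard error 0.17), and −1.30 without PC1. Its flox mean was higher than that of 99.7% of all BAT peaks. In flox BAT this peak held 14.8% of the normalized reads of all 32 member peaks, and in AKO BAT 7.87%. With this peak left out, the summed reads of the other 31 member peaks were 11516, 11224 and 9625 in flox and 9141, 8127 and 9348 in AKO. These groups did not overlap, but nothing is read from that, because the same contrast chose the locus. The sum over all BAT peaks was not set beside it.

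The other distal peaks within Alg9 pointed the same way to a smaller extent. At the exon 13 peak, chr9:50808373-50809821, reads were 1035, 1058 and 912 in flox and 697, 554 and 632 in AKO. The groups were separate, with an AKO mean 37.3% lower and a log2 fold change of −0.50 (standard error 0.18). At −37.2 kb from Ppp2r1b, in intron 13 of Alg9, reads were 289, 312 and 230 in flox and 181, 211 and 180 in AKO. These groups were separate too (log2 fold change −0.51, standard error 0.23, and −0.88 without flox replicate 3). At −15.3 kb, in intron 14, reads were 334, 324 and 299 in flox and 202, 201 and 199 in AKO. The AKO samples there were nearly equal to one another and 37.1% lower on average (log2 fold change −0.61, standard error 0.17). Intron 8 of Alg9 held a further separated peak at 22.6 kb from the Alg9 start, with 770, 740 and 713 reads in flox against 593, 564 and 523 in AKO (log2 fold change −0.37, standard error 0.18). Its smaller neighbour at 20.2 kb had 266, 319 and 265 reads in flox against 234, 187 and 271 in AKO, and these overlapped. The remaining 2 Alg9 peaks, in introns 9 and 10, overlapped as well.

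The start sites differed less. Over the Ppp2r1b start, chr9:50856528-50857483, reads were 519, 486 and 360 in flox and 418, 398 and 415 in AKO. The AKO samples lay inside the flox range (log2 fold change 0.08, standard error 0.20, and −0.13 without PC1). Over the Sik2 start, chr9:51008064-51009527, reads were 1586, 1413 and 1187 in flox and 1321, 989 and 1377 in AKO. These groups overlapped. Their log2 fold change was 0.14 with PC1 (standard error 0.17) and −0.19 without it. Over the Alg9 start, chr9:50775018-50776100, reads were 219, 226 and 203 in flox and 246, 245 and 267 in AKO. This was the 1 member peak at which every AKO sample was higher (log2 fold change 0.28, standard error 0.18).

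**Figure D2:**
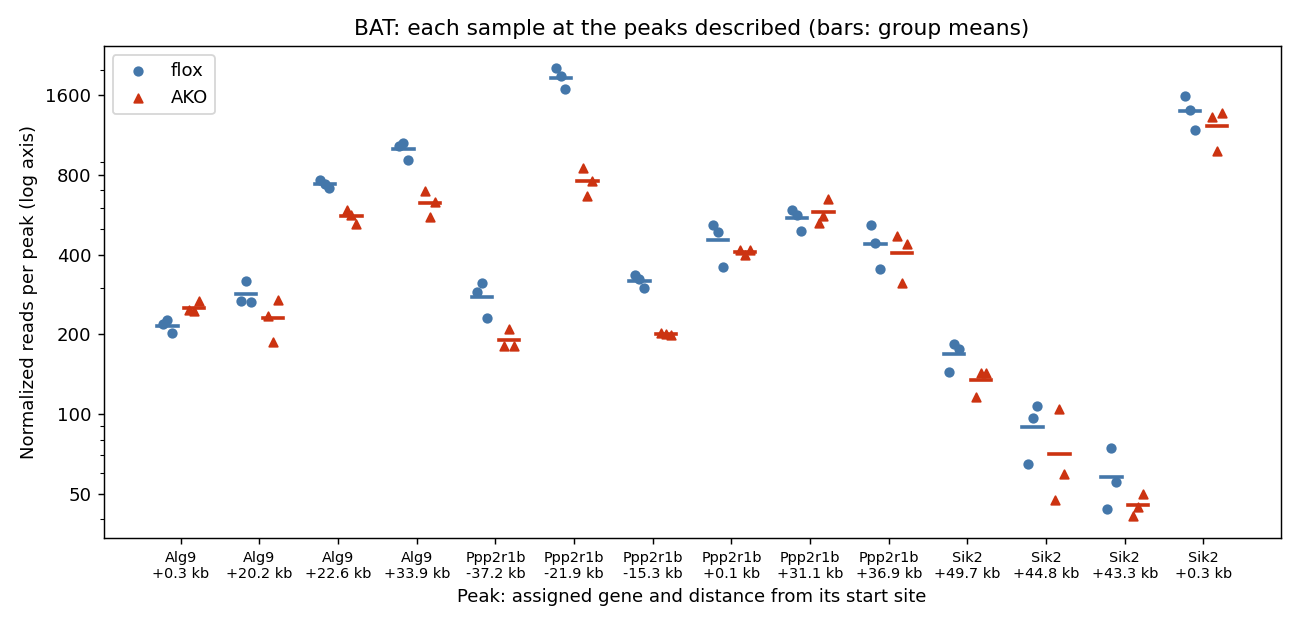
Normalized reads (log axis) of each BAT sample at the peaks described in full, in genomic order and labelled with the assigned gene and the distance from its start. Circles are flox mice, triangles AKO mice and bars group means. At the peak at −21.9 kb the AKO samples reach 853 at most and the flox samples 1692 at least, while the symbols overlap over the starts of Ppp2r1b and Sik2.

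Within Ppp2r1b, intron 11 held both separated peaks. At 19.2 kb from the start, reads were 780, 715 and 733 in flox and 566, 448 and 566 in AKO (log2 fold change −0.33, standard error 0.18). At 20.7 kb, they were 315, 335 and 260 in flox and 192, 214 and 211 in AKO (log2 fold change −0.50, standard error 0.21). Both peaks were lower in every AKO sample. The intron 15 peak with the CRE, chr9:50884194-50886184, is named for its reads, outside the naming rule. It had 2343, 2085 and 1612 in flox and 1639, 1255 and 1844 in AKO. AKO replicates 1 and 3 exceeded flox replicate 3, and the log2 fold change was 0.02 (standard error 0.19) with PC1 and −0.35 without it. Next to it, at 31.1 kb, reads were 591, 565 and 493 in flox and 527, 562 and 649 in AKO. These overlapped, as did the 516, 445 and 354 in flox and 470, 313 and 439 in AKO over the last exon of Ppp2r1b at 36.9 kb. In this last exon, Ppp2r1b and Sik2 overlap on opposite strands. ATAC-seq reads carry no strand of transcription, so the peak belongs to both genes.

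In the body of Sik2, peaks had fewer reads than the largest peaks of the locus. The 3 separated ones lay at 64.2 kb from Ppp2r1b (reads 54.3, 51.7 and 63.4 in flox, 37.1, 42.5 and 42.2 in AKO) and at 49.7 and 5.28 kb from the Sik2 start. At 49.7 kb, in intron 3, reads were 144, 185 and 176 in flox and 116, 143 and 143 in AKO. All AKO samples were lower (log2 fold change −0.49, standard error 0.20). At 5.28 kb, in intron 1, they were 236, 228 and 234 in flox and 226, 147 and 183 in AKO. The flox samples lay close together there and the AKO samples spread below them. The flox means of the peaks at 64.2, 49.7 and 5.28 kb exceeded those of 22.2%, 60.6% and 70.1% of all BAT peaks. The most negative fitted value of a Sik2 peak belonged to another, at 44.8 kb, with 64.8, 96.8 and 107 reads in flox against 47.4, 104 and 59.5 in AKO. Its groups overlapped, and the fitted value, −1.06 with PC1 (standard error 0.20), became −0.39 without it. At 43.3 kb, reads were 43.9, 74.6 and 55.6 in flox and 41.2, 44.4 and 49.9 in AKO. AKO replicates 2 and 3 lay above flox replicate 1 (log2 fold change −0.44, standard error 0.28, and −0.24 without flox replicate 2). The other members in the Sik2 body overlapped between genotypes.

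The sign of several overlapping peaks depended on the covariate. PC1 held 55.6% of the variance of BAT. The lowest score, −98.2, belonged to the deepest sample, flox replicate 1, and the highest, 112, to the shallowest, AKO replicate 2. Scores were −98.2, −41.8 and 14.6 in flox and −0.62, 112 and 13.5 in AKO. Flox replicates 1 and 2 thus lay below every AKO sample. PC1 was tied to genotype in part as well as to depth, and the fit cannot fully part them. The sign of the fitted value differed with and without PC1 at 10 of the 32 members, 5 in each direction. All 10 separated lower peaks were negative in both fits. Without PC1 this follows from the separation itself, so only the fit with PC1 could have differed. The largest shift was 0.66 on the log2 scale, at the Sik2 peak at 44.8 kb.

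**Figure D3:**
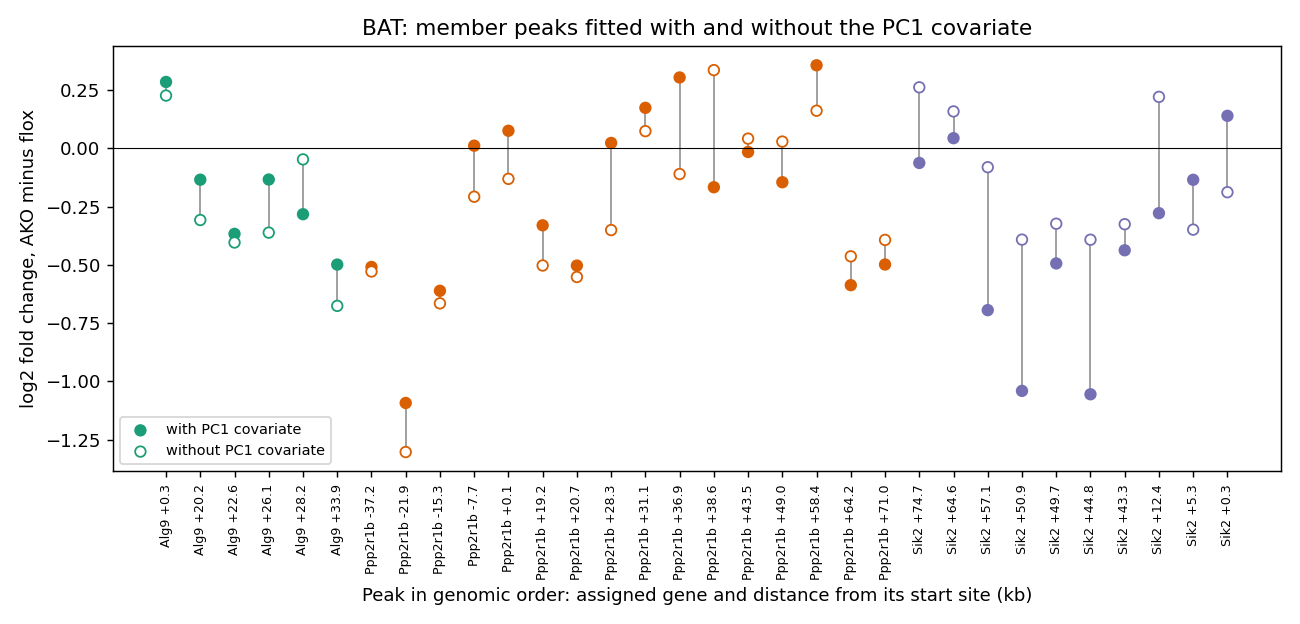
Log2 fold change (AKO minus flox) of the 32 BAT member peaks in genomic order, fitted with the PC1 covariate (filled) and without it (open), coloured by assigned gene as in the map of the locus. The peak at −21.9 kb and the exon 13 peak are negative in both, while 10 peaks, among them those over the Ppp2r1b and Sik2 starts, cross 0.

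Adipocyte genes as a group were also lower in AKO BAT, which bears on reading a bulk tissue, where fewer adipocyte nuclei and less accessibility per nucleus cannot be told apart. The summed reads of 64 peaks at 8 adipocyte genes (Ucp1, Cidea, Adipoq, Pparg, Plin1, Fabp4, Adrb3 and Lipe) were 28564 to 33991 in flox and 19123 to 24717 in AKO. Of these peaks 31 were lower and 3 higher without overlap (48.4% and 4.69%, beside 8.84% and 8.77% of all BAT peaks). Peaks at the endothelial genes Pecam1, Cdh5, Kdr and Tek summed to 2192 to 2456 in flox and 2165 to 2532 in AKO. Of these 25 peaks, 1 was lower and 2 were higher without overlap. The fibroblast and preadipocyte genes Pdgfra, Col1a1, Col3a1 and Dpp4 summed to 1512 to 1599 and 1502 to 1634. Of their 11 peaks, 1 was lower and 3 were higher without overlap. Of 5 immune genes, Adgre1 had 1 peak (112 to 188 in flox and 126 to 174 in AKO), and Cd3e, Cd68, Csf1r and Ptprc had none in BAT. The muscle genes Ckm, Myh1 and Myod1 had no BAT peak, and the peaks of Myh4 and Acta1 summed to 245 to 273 in flox and 243 to 363 in AKO. Of the mammary genes, Krt14 and Krt18 had no peak, and those of Epcam and Krt8 summed to 733 to 784 in flox and 696 to 730 in AKO. These mammary sums did not overlap either, and of the 6 peaks 1 was lower and 2 were higher without overlap. The part of cell composition in the member values was not tested.

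In iWAT, 0 of 17 member peaks passed an adjusted p of 0.1 in limma with Benjamini-Hochberg adjustment over all 39558 peaks. The same holds for the whole table (0% called), whose smallest adjusted p was 0.149. At an unadjusted p under 0.05, limma gave 1 lower and 1 higher member, beside 7.42% and 7.61% of all iWAT peaks. DESeq2 on the recovered reads called 1 member lower and 0 higher (0.63% and 0.546% of all peaks with an adjusted p), and the quasi-likelihood test of edgeR called 2 lower and 1 higher (2.52% and 2.15%). AKO aliquots were lower without overlap at 0 members, beside 10.3% of all iWAT peaks, and higher at 2, beside 10.6%. The median fitted log2 fold change of the members was −0.06 (all iWAT peaks −0.00, of which 50.1% were negative).

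All 17 iWAT members overlapped a BAT member by at least 1 bp. The counterpart of the peak at −21.9 kb, chr9:50834164-50835637, had 343, 219 and 362 reads in flox against 228, 198 and 181 in AKO. AKO replicate 1 lay just above flox replicate 2, and the other values were separate. The means were 308 ± 77.7 in flox and 202 ± 24.1 in AKO (SD, n = 3 aliquots), 34.4% lower in AKO. The limma p of this difference (log2 scale −0.58, standard error 0.22) was 0.031 and its adjusted p 0.281, which did not pass the threshold. DESeq2 gave it an adjusted p of 0.0479 and edgeR 0.00164. At the exon 13 peak of Alg9, reads were 220, 115 and 252 in flox and 127, 122 and 112 in AKO. Flox replicate 2 lay among the AKO aliquots and the other flox aliquots far above them. The adjusted p was 0.363 in limma, 0.377 in DESeq2 and 0.00548 in edgeR, and the log2 fold change was −0.62 with a standard error of 0.28. It was −0.96 without flox replicate 2 and −0.40 without flox replicate 3.

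A peak at the end of Ppp2r1b, chr9:50893714-50894634, had the smallest adjusted p of the iWAT members in limma, though not in DESeq2 or edgeR. It covers the last exon of Ppp2r1b and a part of Sik2. Reads were 132, 135 and 149 in flox and 218, 178 and 170 in AKO, so that every AKO aliquot was higher. The means were 138 ± 9.17 and 189 ± 25.6 (SD, n = 3 aliquots). On the log2 scale the AKO aliquots were 0.44 higher (standard error 0.15), with an adjusted p of 0.243 in limma. DESeq2 gave an adjusted p of 0.190 and edgeR 0.0685. The other separated iWAT peak lay in intron 8 of Alg9, at 20.2 kb, with 48.5, 50.03 and 46.5 reads in flox against 53.0, 73.1 and 62.0 in AKO (log2 fold change 0.36, standard error 0.15, adjusted p = 0.336 from limma). It overlaps the BAT peak at that distance, whose log2 fold change was −0.13.

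The iWAT peaks over start sites showed small differences. Over the Ppp2r1b start, reads were 195, 172 and 208 in flox and 157, 211 and 200 in AKO (log2 fold change −0.03, standard error 0.16, adjusted p = 0.954 from limma). Over the Sik2 start, the iWAT member with the most reads, they were 607, 597 and 585 in flox and 591, 655 and 666 in AKO (log2 fold change 0.09, standard error 0.12, adjusted p = 0.764 from limma). Over the Alg9 start, they were 94.8, 74.5 and 98.1 in flox and 96.8, 85.6 and 71.6 in AKO (log2 fold change −0.07, standard error 0.17, adjusted p = 0.878 from limma). The groups overlapped at all 3 starts. At 30.7 kb from the Ppp2r1b start, reads were 60.6, 58.9 and 53.4 in flox and 57.6, 87.9 and 82.3 in AKO. AKO replicate 1 lay within the flox range (log2 fold change 0.37, standard error 0.19, adjusted p = 0.397 from limma). Smaller peaks at −37.3 kb from Ppp2r1b and at 21.7 kb from Alg9 overlapped too, with 32.1, 54.5 and 41.3 reads against 24.2, 41.1 and 43.8 at the first and 45.6, 57.8 and 61.1 against 62.2, 49.1 and 46.0 at the second.

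**Figure D4:**
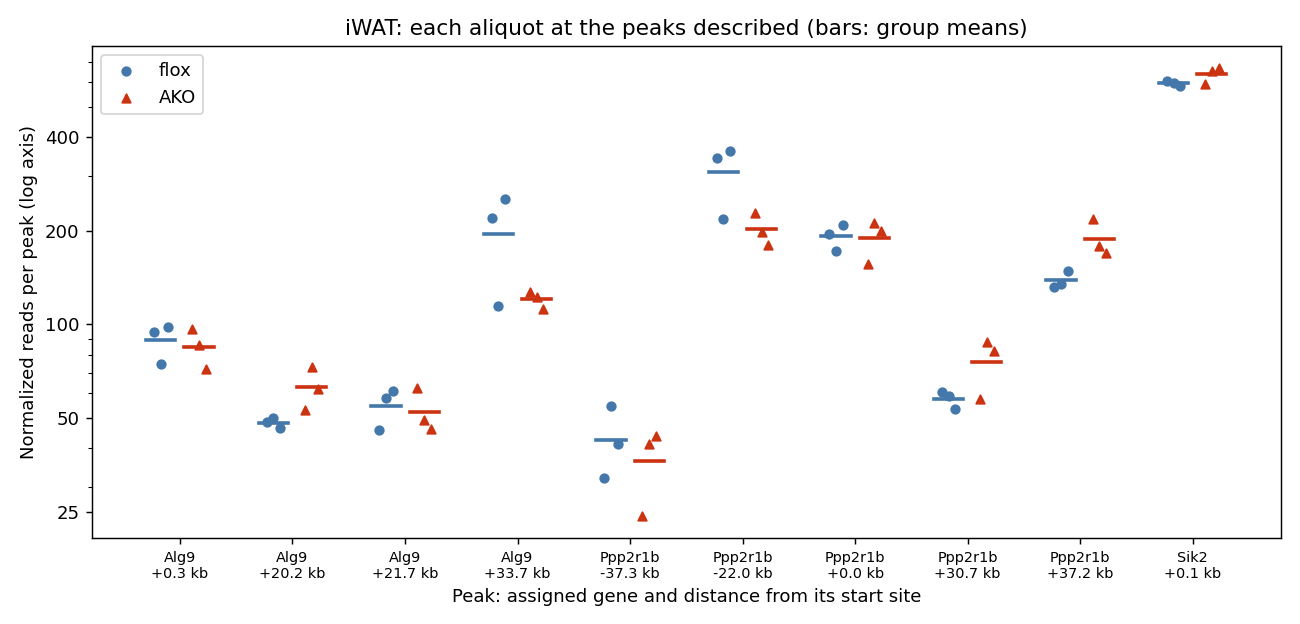
Normalized reads (log axis) of each iWAT aliquot at the peaks described in full, in genomic order. Circles are flox and triangles AKO aliquots of 1 pool each, and bars are group means. At the peak at −22.0 kb the highest AKO aliquot (228) exceeds the lowest flox aliquot (219), and at 37.2 kb all AKO aliquots (170 to 218) lie above the flox aliquots (132 to 149).

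Side by side, the log2 fold change of the peak at −21.9 kb was −1.09 in BAT and −0.58 in iWAT (standard errors 0.17 and 0.22), and that of the exon 13 peak was −0.50 and −0.62 (standard errors 0.18 and 0.28). The tables were normalized separately, and the difference between tissues was not tested. Of the 17 overlapping pairs, 5 were lower without overlap in BAT and 0 in iWAT, and 11 had the same sign in both. The same counts over all overlapping pairs of peaks were not made, and the BAT values had chosen the locus. Nothing is read from these pair counts. In iWAT the adipocyte genes summed to 3327 to 4073 reads in flox and 3448 to 3769 in AKO, while endothelial genes summed to 766 to 855 in flox and 671 to 740 in AKO. Of the immune genes, Cd3e and Cd68 had no iWAT peak, and the peaks of Adgre1, Csf1r and Ptprc summed to 268 to 327 in flox and 175 to 239.8 in AKO, without overlap. The fibroblast genes (1092 to 1210 and 1087 to 1234), the muscle genes with a peak (129 to 182 and 144 to 164) and the mammary genes with a peak (335 to 368 and 350 to 368) overlapped. Their part in the iWAT values was not tested.

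**Figure D5:**
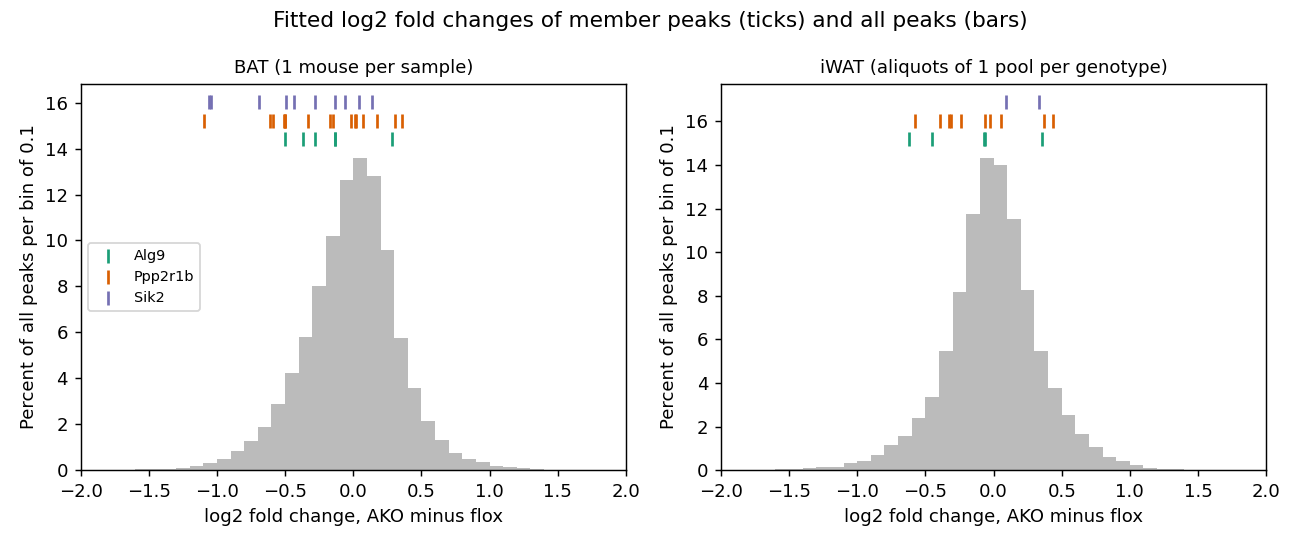
Distribution of the fitted log2 fold changes (AKO minus flox) of all peaks (grey bars, percent of peaks per bin) and of the member peaks (ticks coloured by assigned gene) in BAT (left) and iWAT (right). BAT members reach −1.09 and iWAT members lie between −0.62 and 0.44.

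In the surroundings, no peak of another gene lay between the outermost members. Within 500 kb on the Alg9 side, 28 BAT peaks of 12 genes had log2 fold changes from −0.58 to 0.35 (median −0.01), with 3 lower and 2 higher without overlap. On the Sik2 side, 7 BAT peaks of 6 genes ran from −0.44 to 0.28, and all overlapped. In iWAT, the 23 peaks on the Alg9 side ran from −0.77 to 1.01 (3 lower and 5 higher without overlap) and the 6 on the Sik2 side from −0.62 to 0.61.

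Genes that work with the members were scattered over the genome and are given as lists with their counts. For PP2A, whose regulatory B subunits direct the enzyme to its substrates, 23 of 27 symbols had 102 BAT peaks, with 0 called by limma, DESeq2 or edgeR at an adjusted p of 0.1 (0% and 0.143% of all BAT peaks in limma and edgeR, and 0.408% of those with an adjusted p in DESeq2). At these peaks 15.7% were lower and 4.90% higher without overlap (8.84% and 8.77% of all BAT peaks). At an unadjusted limma p under 0.05, 12 were lower and 2 higher (5.59% and 3.46% of all BAT peaks). The median log2 fold change was −0.04. The smallest p belonged to Ppp2r5a, which encodes a B56 subunit, at chr1:191411742-191411994. Its reads were 64.3, 66.5 and 77.6 in flox and 42.3, 48.3 and 34.5 in AKO (log2 fold change −0.95, standard error 0.20, adjusted p = 0.431 from limma). Every AKO sample was lower. Ppp2r5e, for another B56 subunit, came next with overlapping groups (57.7 ± 15.1 in flox and 49.1 ± 21.3 in AKO, SD, n = 3 mice), at −0.94 on the log2 scale with PC1 and −0.28 without it. The other scaffold gene, Ppp2r1a, had 1 peak in each table, with log2 fold changes of 0.19 in BAT and −0.15 in iWAT. The BAT value was fitted with PC1, although the mean reads there were lower in AKO (1131) than in flox (1286). In iWAT, 61 PP2A peaks gave 0 calls by limma, DESeq2 or edgeR, 2 lower and 2 higher at an unadjusted limma p under 0.05 (7.42% and 7.61% of all iWAT peaks), and a median of −0.03. The peaks with the smallest p were both at Ppp2r5a and differed in opposite directions, with 66.3 ± 3.82 in flox and 50.8 ± 2.38 in AKO at the first and 41.4 ± 5.53 and 56.3 ± 4.28 at the second (adjusted p = 0.239 and 0.243 from limma, n = 3 aliquots).

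For the SIK kinases, their activator, the CRTC and histone deacetylase substrates, CREB and protein kinase A, 17 of 17 symbols had 117 BAT peaks. Limma and edgeR called 0 of them, and DESeq2 called 1 lower, at Prkar2b (adjusted p = 0.0822). Over all BAT peaks limma called 0% and edgeR 0.143%, and DESeq2 called 0.408% of those with an adjusted p. Reads there were 938, 719 and 692 in flox against 477, 319 and 390 in AKO, so that every AKO sample was lower. Limma gave 13 lower and 5 higher at an unadjusted p under 0.05 (5.59% and 3.46% of all BAT peaks). Without overlap, 12.8% were lower and 6.84% higher (8.84% and 8.77% of all BAT peaks), and the median was −0.04. Hdac7, a class IIa histone deacetylase, had a small peak with 11.0, 14.04 and 20.7 reads in flox against 46.4, 61.8 and 40.3 in AKO (log2 fold change 1.16, standard error 0.20, adjusted p = 0.417 from limma). All AKO samples were higher there. Another peak of Prkar2b, which encodes a regulatory subunit of protein kinase A, had 166, 155 and 197 in flox and 78.3, 114 and 108 in AKO (log2 fold change −1.02, standard error 0.22, adjusted p = 0.436 from limma). All AKO samples were lower. Sik1 had 22 BAT peaks with a median of 0.16 and Sik3 had 10 with a median of −0.08, while the 10 of Sik2 had a median of −0.36. These medians came from the fit with PC1. The mean summed reads were lower in AKO at each gene. They were 6860 in flox and 5538 in AKO at Sik1, 1841 and 1565 at Sik3, and 2265 and 2022 at Sik2. In iWAT, 75 peaks of 16 symbols gave 0 calls by limma, 0 lower and 1 higher by DESeq2, 2 higher by edgeR, and 8 lower and 7 higher at an unadjusted limma p under 0.05, with a median of 0.05. Over all iWAT peaks, 7.42% were lower and 7.61% higher at that limma p. EdgeR called 2.52% lower and 2.15% higher, and DESeq2 0.63% and 0.546% of those with an adjusted p. The edgeR calls were Sik1 (adjusted p = 0.0581) and Hdac7, and Hdac7 was also the call of DESeq2, with 57.0, 70.0 and 63.7 reads in flox against 93.4, 112 and 106 in AKO (log2 fold change 0.70, standard error 0.14, adjusted p = 0.151 from limma and 0.0908 from DESeq2). Hdac4 was next, with 52.7 ± 1.32 in flox and 78.9 ± 9.28 in AKO (SD, n = 3 aliquots, adjusted p = 0.173 from limma).

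For the assembly of the lipid-linked N-glycan precursor, in which ALG9 acts, 18 of 21 symbols had 38 BAT peaks. Limma, DESeq2 and edgeR called 0, limma gave 3 lower and 0 higher at an unadjusted p under 0.05 (5.59% and 3.46% of all BAT peaks), and the median was 0.03. Without overlap, 7.89% were lower and 5.26% higher (8.84% and 8.77% of all BAT peaks). Dpm2 (39.7 ± 11.1 in flox and 36.05 ± 17.8 in AKO) and Alg14 (25.6 ± 13.6 and 33.8 ± 18.0, SD, n = 3 mice) had the smallest p, with overlapping groups. The fitted value of Dpm2 was −0.97 on the log2 scale with PC1 and −0.23 without it. That of Alg14 was −0.64 with PC1, which counts it among the lower peaks, and 0.40 without it. In iWAT, 28 peaks of 17 symbols gave 0 limma calls and a median of 0.01, while DESeq2 and edgeR called 1 lower and 1 higher. The lower one was Mpdu1, a gene for the use of dolichol-linked sugars (adjusted p = 0.0837 from DESeq2 and 0.018 from edgeR), and the higher one was Dolpp1. Limma gave 2 lower and 2 higher at an unadjusted p under 0.05 (7.42% and 7.61% of all iWAT peaks). Over all iWAT peaks, edgeR called 2.52% lower and 2.15% higher, and DESeq2 0.63% and 0.546% of those with an adjusted p. Dolpp1, a dolichyl pyrophosphate phosphatase, had 131, 150 and 157 reads in flox against 217, 209 and 196 in AKO (log2 fold change 0.50, standard error 0.13, adjusted p = 0.185 from limma and 0.0843 from DESeq2). Alg1, the first mannosyltransferase of the pathway, had 45.6, 43.4 and 39.6 in flox and 28.8, 28.5 and 32.1 in AKO (adjusted p = 0.180 from limma and 0.513 from DESeq2). The groups were separate at both peaks.

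Motif matches were counted as a description. A PPAR response element match lay in the central 200 bp of 5 of 32 BAT members and of 23.4% of all BAT peaks, and of 4 of 17 iWAT members and 20.3% of all iWAT peaks. The peak at −21.9 kb held 2 matches, 181 and 337 bp right of its midpoint with 3 and 2 mismatches, and 81.0% of BAT peaks of like width (within 10%) held at least 1. The exon 13 peak held 6, as printed in part above, and 74.5% of like-width peaks held at least 1. The CRE occurred in 2 BAT members, in intron 15 of Ppp2r1b, where 4.06% of like-width peaks held it, and at −37.2 kb, where its letters overlap a PPAR element match with 3 mismatches. The exact C/EBP motif TTGCNNAA lay in the centre of 1 BAT member (11.0% of all BAT peaks) and of 0 iWAT members (10.2%). Central matches to EBF (TCCC and GGGA 2 bases apart), NF1 (TTGGC and GCCAA 5 bases apart, up to 1 mismatch) and CTCF (CCAC and AGGTGGCAG 1 base apart, up to 2 mismatches) were at 0 members in both tables, beside 1.84%, 1.44% and 2.97% of all BAT peaks and 1.203%, 1.08% and 2.38% of all iWAT peaks. All motifs were searched on both strands. By composition, the 3 peaks over starts had 62.6 to 68.6% GC in BAT, and the peak at −21.9 kb had 48.0%.

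The peaks most like the one at −21.9 kb over the 6 BAT samples, among 34143 others with at least 100 normalized reads on average, lay near Prelp, an extracellular matrix proteoglycan, Nudt7, a peroxisomal coenzyme A hydrolase, Cpt1b, the mitochondrial carnitine palmitoyltransferase of muscle and brown fat, Otop1, a proton channel, and Mir5624. Their Pearson correlations with it on the log2 scale were 0.998 to 0.999 over 6 samples, which share the genotype groups and the spread of depths. A correlation above 0.9 was found at 1042 of the 34143. The closest member was the peak at −15.3 kb, at 0.988.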

How the data were processed

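ATAC-seq libraries of 12 samples were used. Per the labels, each reaction held 50000 nuclei, whereas the methods of the study give 5000. Reads were 38 bp, to which the longer reads of iWAT had been trimmed. The products of 2 reactions per sample were merged. The authors mapped the reads to mm10 with BWA 0.7.17-r1188, kept autosomal reads of a mapping quality of at least 30 without duplicates (Picard 2.8.14), called broad peaks in each sample with MACS2 2.1.1.20160309 and joined peaks called in at least 2 of 3 samples of a genotype. The deposited signal values are reads per peak, counted with bedtools 2.27.1, that the authors divided by DESeq2 1.20.0 size factors. The deposited tables also hold fold changes, standard errors and p-values of the authors' own DESeq2 comparison, which were not used. Multiplying back gave whole reads at 100% of values (tolerance 0.01), and 0 columns of sample values were left unused. The table of BAT was told from that of iWAT by the descriptions of the samples and by the covariate that the authors stated for brown fat.

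Each table was fitted on its own with limma 3.58.1 in R 4.3.3 (lmFit and eBayes on log2 with a pseudocount of 1), with PC1 as covariate in BAT and none in iWAT, and adjusted over all peaks by Benjamini-Hochberg with a threshold of 0.1. With 3 against 3 samples no exact permutation test goes below 0.1, so none was made for single peaks. The median peak held 70 to 226 reads in BAT and 62 to 98 in iWAT samples, which limits small peaks. Intervals were not drawn from counts, and standard errors cover the spread between samples. In tests on simulated data with 100 peaks changed by 1 and 100 by 2 log2 units, limma called 4 and 93 of them in BAT (58558 peaks, 5 unchanged peaks called besides) and 79 and 100 in iWAT (39558 peaks, 11 besides), and DESeq2 1.42.0 called 71 and 97 in BAT (21 besides) and 99 and 100 in iWAT (3 besides). The changed peaks were drawn from those averaging at least 100 normalized reads, and no PC1 pattern was simulated. These rates therefore do not cover smaller peaks, such as several in the Sik2 body. Count tests with edgeR 4.0.16 and DESeq2 on the recovered reads, other pseudocounts, scalings, filters, blocks and samples left out served as alternatives. The limma-trend fit and DESeq2 without PC1 were added after the values were seen.

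The members, gene lists and rules were chosen with earlier results of these data known. Given in full were the Ppp2r1b peak nearest to 22 kb upstream, the peaks over starts, per table and gene the 3 peaks of the largest fitted change whose normalized reads averaged 50 or more, and the peaks of the other table that overlap these. Where no listed pathway gene was called by limma, the 2 peaks of smallest p were named. The Prkar2b, Sik1 and Mpdu1 peaks called by DESeq2 or edgeR were named after their values were seen. Genes follow principal GENCODE vM21 transcripts, and coordinates are 1-based. A marker of the immune list is not reported here, and the sums of that list leave it out. Python 3.11.15 with numpy 2.4.6, pandas 2.3.3 and matplotlib 3.10.9 did the rest.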

Additional observations from a re-analysis of the deposited data

How the results depend on the processing

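At the peak at −21.9 kb in BAT, all alternatives kept a negative log2 fold change, from −1.30 to −1.04. It was −1.30 without PC1, with or without the replicate block, and −1.30 in DESeq2 without PC1. The BAT peak over the last exon of Ppp2r1b, at 36.9 kb, had a log2 fold change of 0.30 with PC1 (standard error 0.17), although its AKO mean was 7.08% lower. It turned to −0.11 without PC1 (with the replicate block too) and to −0.10 in DESeq2 without PC1. With the replicate block and PC1, the Sik2 peak at 43.3 kb was at −0.05 and the one at 49.7 kb at −0.29. Over all BAT peaks, limma called 0 in either direction, and 1 lower with a pseudocount of 10. Counts of calls, lower and higher, were 127 and 47 with DESeq2, 67 and 17 with edgeR, 44 and 9 with limma-trend and 303 and 300 with DESeq2 without PC1. Among BAT members, separated lower peaks numbered 10 to 16 with 1 sample left out, 16 without flox replicate 3, and 8 under scaling by total reads. Separated higher peaks numbered 1 to 3 with 1 sample left out and 2 under scaling by total reads. Leaving out AKO replicate 1 gave the 3, and leaving out AKO replicate 2 or 3 gave 2. A peak separated with all samples stays so with 1 left out, so these counts could only stay or rise. No share over all BAT peaks was set beside them, and nothing is read from them.

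In iWAT, calls over all peaks, lower and higher, were 225 and 195 with DESeq2, 996 and 850 with edgeR and 792 and 648 with limma-trend, against 0 in the limma test. Members called lower were 1 with DESeq2, 2 with edgeR and 2 with limma-trend, and members called higher 1 with edgeR and 1 with limma-trend. The peak at −22.0 kb was called by DESeq2 (−0.62), edgeR (−0.62) and limma-trend (−0.58), and its adjusted p ran from 0.00164 to 0.9999 over the alternatives. With the PC1 score as a covariate, which in iWAT separates the genotypes, the Ppp2r1b start turned to 0.58 and the last-exon peak at 37.2 kb to −0.82. With 1 aliquot left out, the log2 fold change ran from −0.20 to 0.041 over the Alg9 start, from −0.19 to 0.022 at 21.7 kb in Alg9, from −0.42 to 0.026 at −37.3 kb and from −0.11 to 0.10 over the Ppp2r1b start. Separated lower members then numbered 0 to 4 (4 without flox replicate 2, 3 without AKO replicate 2, and 1 without flox replicate 3 or AKO replicate 1) and higher ones 2 to 4 (4 without AKO replicate 1). The cause was not tested for any of these. Counts of separated members can only stay or rise with 1 aliquot left out. No share over all iWAT peaks was set beside those counts. When 50% of both peaks had to overlap, 10 members were shared in each table in place of 17.

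Not every pair of same-numbered samples deviated together (correlations of deviations 0.494, 0.063 and −0.236 in BAT, −0.039, −0.050 and −0.057 in iWAT), so they were taken to share only a number. The replicate block gave 0 calls in either direction in both tables, as did the fits without it. Scaling moved the median of all peaks by less than 0.1 on the log2 scale. The depth of the shallowest BAT sample, 6336670 reads, and small peaks limit the precision, and the iWAT values rest on 1 pool per genotype.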
